A study of Mus musculus with 30 samples.

Results

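The genes described here are 10 genes of glucose uptake, glycolysis and the hypoxia response, namely Slc2a1, Slc2a3, Hk1, Hk2, Pfkp, Aldoc, Ldha, Ldhb, Pdk1 and Bnip3. They were taken by symbol from the table of read counts, which holds 25400 genes. All 10 were among the 16582 genes that passed the filter on low counts and were tested. The comparison asks how the expression of these genes differed between cells that had taken on a neural identity and cells that had kept or gained other identities.

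Poly(A) RNA-seq was performed on ESC-derived neuronal progenitor cells (NPCs) of the mouse at day 8 of differentiation, in 24 libraries, 3 from each of 8 lines. All lines were derived from 1 ESC line that carries a biotin ligase and a site for recombination. WT had the wild type genotype and MBD3KO had the genotype Mbd3-KO, that is, no intact Mbd3, a subunit of the NuRD chromatin remodelling complex. The other 6 lines had the same knockout and, at the recombination site, a construct driven by the CAG promoter, which is active in most cell types. MBD3a carried the longest MBD3 isoform, and MBD3dMBD carried Mbd3a_delMBD, MBD3a without its MBD domain. MBD2aFL carried full-length Mbd2a, MBD2a-GR carried Mbd2a_delGR without the glycine-arginine stretch, MBD2aR181C carried Mbd2a_R181C, in which 1 residue of the MBD domain is exchanged, and MBD2t carried the truncated Mbd2t isoform, which lacks the coiled coil. The libraries of a line came from separately derived clones, except for MBD2t, where they were repeats of 1 clone, so the spread of MBD2t leaves out differences between clones.

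Library totals lay between 27993858 and 49392806 counted reads. Levels are given as CPM, read counts scaled to the same library total with TMM factors, and as RPKM, that is CPM per kilobase of exon, where genes are compared with each other. A gene was called changed when the adjusted p of edgeR's quasi-likelihood test, fitted over all 24 libraries, was under 0.05 and the absolute log2 fold change was above 1. Mbd3 was between 149 and 157 CPM in WT and between 34.2 and 73.8 CPM in MBD3KO. It was between 168 and 198 CPM in MBD3a and between 423 and 496 CPM in MBD3dMBD. Mbd2 was between 64.2 and 70.9 CPM in MBD3KO and between 67.0 and 87.2 CPM in MBD2aFL, so the construct could not be seen in the reads of the libraries labelled MBD2aFL, while Mbd2 lay between 253 and 700 CPM in the other lines with an MBD2 construct. Neural progenitor markers were detected in every line, but their summed level differed between lines. It lay between 2711 and 4137 CPM in WT, between 630.5 and 704 CPM in MBD3KO, between 459 and 816 CPM in the libraries labelled MBD2aFL and between 662 and 708 CPM in MBD2t. Within MBD3KO, library s04 had the highest CPM for 9 of the 10 genes, and within MBD2aFL, library s13 had the lowest CPM for 9 of the 10 genes (libraries are named by the number of the deposited column). Results that rest on these libraries are given with and without them.

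Cells take up glucose through transporters of the SLC2A family and trap it by phosphorylation through hexokinases. Glycolysis then turns it into pyruvate, which lactate dehydrogenase reduces to lactate or which pyruvate dehydrogenase oxidizes inside the mitochondrion. Many genes of this pathway are induced by hypoxia-inducible factors (HIF), which bind DNA at a short core motif. Pluripotent stem cells and early neural progenitors are both known for high glycolytic activity, and neurons for a shift towards mitochondrial respiration.

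The promoters of the 3 genes of the 10 that were called lower in MBD3KO, and that of Slc2a1, are shown, with 1 window for each gene. They differ in the letters ACGTG, a form of the HIF core motif, whose other form is GCGTG. The stretches are the 250 bases upstream of the start of a RefSeq transcript, taken from a table on GRCm38.p6, and each matched exactly 1 place on its chromosome in NCBIM37 (mm9), whose coordinates are given. Capitals mark ACGTG or its reverse complement CACGT, while GCGTG and its reverse complement CACGC are not marked.
Bnip3 (chr7:146101190-146101439, minus strand): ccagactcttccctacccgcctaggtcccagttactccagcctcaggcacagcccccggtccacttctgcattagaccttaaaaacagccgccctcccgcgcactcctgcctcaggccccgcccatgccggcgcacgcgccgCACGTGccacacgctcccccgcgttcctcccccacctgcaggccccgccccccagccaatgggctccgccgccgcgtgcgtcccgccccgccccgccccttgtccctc
Ldha (chr7:54100924-54101173, plus strand): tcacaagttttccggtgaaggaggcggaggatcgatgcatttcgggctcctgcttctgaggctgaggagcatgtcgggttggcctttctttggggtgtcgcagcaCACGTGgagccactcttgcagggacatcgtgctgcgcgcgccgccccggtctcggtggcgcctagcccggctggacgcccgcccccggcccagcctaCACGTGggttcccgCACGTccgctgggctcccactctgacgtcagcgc
Pdk1 (chr2:71711031-71711280, plus strand): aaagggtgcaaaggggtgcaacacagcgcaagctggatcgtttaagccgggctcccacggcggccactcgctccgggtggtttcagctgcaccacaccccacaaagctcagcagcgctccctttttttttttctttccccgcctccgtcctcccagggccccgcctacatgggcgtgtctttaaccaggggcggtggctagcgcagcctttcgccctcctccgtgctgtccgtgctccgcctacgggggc
Slc2a1 (chr4:118781100-118781349, plus strand): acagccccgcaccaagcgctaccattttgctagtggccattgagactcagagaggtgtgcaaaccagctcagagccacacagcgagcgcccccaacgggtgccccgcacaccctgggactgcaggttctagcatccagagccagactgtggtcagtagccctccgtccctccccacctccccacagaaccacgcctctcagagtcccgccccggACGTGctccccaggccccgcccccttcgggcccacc
The Bnip3 promoter held the palindrome CACGTG, which matches on both strands, with its first base 108 bases upstream of the start. The printed Ldha window held CACGTG at 145 and at 48 bases upstream, and CACGT at 34 bases upstream. Ldha and Pdk1 each had another window that is not printed. That of Ldha (chr7:54102202-54102451) held no ACGTG but held GCGTG on either strand. That of Pdk1 (chr2:71712711-71712960) held neither form. Slc2a1 held ACGTG at 36 bases upstream, and Hk2 held CACGT at 226 and at 52 bases upstream.

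The promoter table held 13 windows for 9 of the 10 genes, and Slc2a3 had none. ACGTG on either strand was present in 4 of the 13 windows, those of Bnip3, Hk2, Ldha and Slc2a1, and in 16.6% of all 32851 windows of the table. The other form, GCGTG, on either strand was present in 9 of the 13 windows and in 28.2% of all windows. Among the printed windows, those of Bnip3, Pdk1 and Slc2a1 held it on either strand, and that of Ldha did not. CACGTG, which contains ACGTG, was present in 2 of the 13 and in 6.02% of all. A match describes the letters of the window only.

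The order of levels in WT was led by the genes at the ends of the pathway. On the RPKM scale, WT levels were 425 ± 74.8 for Ldha and 392 ± 86.4 for Slc2a1 (SD, n = 3). Bnip3 followed at 112.3 ± 13.01, Ldhb at 84.7 ± 15.8 and Slc2a3 at 53.7 ± 9.07 RPKM. Hk2 was at 26.2 ± 12.8, Pdk1 at 20.3 ± 2.26, Hk1 at 8.25 ± 2.69, Pfkp at 5.50 ± 0.971 and Aldoc at 4.33 ± 1.55 RPKM. Neighbours in this order differed by less than the larger of their SDs for Ldha and Slc2a1, for Hk2 and Pdk1, and for Pfkp and Aldoc. Over all 24 libraries, the highest CPM was 8.49 times the lowest for Bnip3, 7.42 times for Ldha, 7.07 times for Slc2a3 and 6.997 times for Pfkp, but 2.20 times for Hk1 and 2.24 times for Ldhb.

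**Figure D1:**
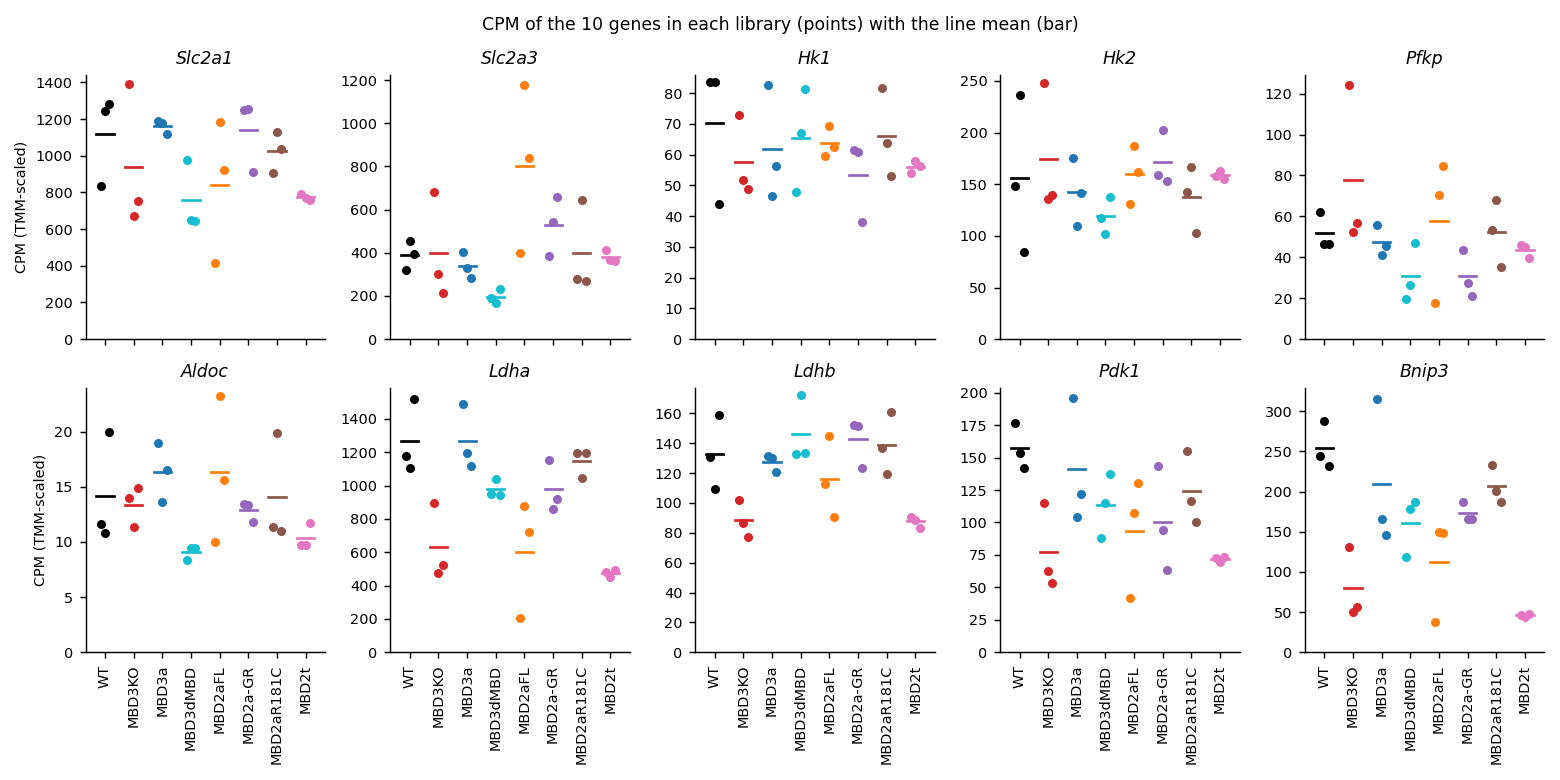
CPM of each of the 10 genes (vertical axis, TMM-scaled, starting at 0) in the 8 lines (horizontal axis), with a point for each library and a bar for the mean of 3. Bnip3, Ldha and Pdk1 sit below all WT libraries in MBD3KO, in the libraries labelled MBD2aFL and in MBD2t, while Hk1, Hk2 and Aldoc overlap with WT in these 3 lines.

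In MBD3KO, 3 of the 10 genes were called lower than in WT and none higher, against 14.2% of all tested genes called lower and 33.8% called in either direction. These were Bnip3, Ldha and Pdk1. By the adjusted p alone, 4 of the 10 were lower, with Ldhb as the fourth, against 30.8% of all tested genes. The libraries of the same 4 genes lay below all WT libraries, as did those of 31.1% of all tested genes. The shares of the 10 genes that passed by the adjusted p alone or that did not overlap were thus near the shares of all tested genes. In bulk RNA, fewer cells that express a gene and less of its RNA per cell cannot be told apart. In MBD3KO, 15 of the 15 neural progenitor markers tested were called lower, 11 of 12 pluripotency markers higher and 11 of 12 trophoblast markers higher. The summed level of pluripotency markers lay between 40.7 and 186 CPM in WT and between 375 and 1091 CPM in MBD3KO, and that of trophoblast markers between 151 and 324.5 CPM in WT and between 2059 and 2739 CPM in MBD3KO. For primitive and parietal endoderm, 2 of 14 markers were called higher and none lower, against 19.6% of all tested genes called higher. Their sum lay between 1357 and 2301 CPM in MBD3KO and between 772 and 954 CPM in WT. Mesenchyme and muscle markers had 5 of 10 called lower and 1 higher. None of the 12 pluripotency or 12 trophoblast markers was at 0 in all libraries of either line, and the part of these cell types in the result was not tested.

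Slc2a1 and Slc2a3 overlapped between MBD3KO and WT and were not called. Slc2a1 (GLUT1, the widely expressed glucose transporter) lies on chromosome 4 at 118781316 to 118809935 (mm9). Its CPM was 836, 1242 and 1280 in WT and 1394, 672 and 755 in MBD3KO. The MBD3KO values lay on both sides of WT, with s04 above all WT libraries and the other 2 below all of them. In the libraries labelled MBD2aFL the CPM was 416, 1186 and 923, and in MBD2t it was 791, 772 and 759. MBD2t was the only one of these lines whose Slc2a1 values all lay below WT, and the gene was not called (log2 fold change -0.53, SE 0.30, adjusted p = 0.134, edgeR quasi-likelihood). The remaining lines ranged from 645 CPM in MBD3dMBD to 1255 CPM in MBD2a-GR. An exon of Slc2a1 shares 105 bases with Gm12868 on the opposite strand, and since the strand setting of the counting is not stated, its reads could include some of that gene.

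Slc2a3 (GLUT3, a transporter with high affinity for glucose, typical of neurons and early embryos), on chromosome 6 at 122677827 to 122751658, was the only gene of the 10 that was called higher in a line. In WT it was at 321, 452 and 394 CPM. In the libraries labelled MBD2aFL it was at 397, 1175 and 837 CPM. Here 2 of the 3 values were above all WT libraries and the third, s13, was among them. The fold change was 2.06 (log2 1.04, SE 0.40, adjusted p = 0.0341), and 16.9% of all tested genes were called higher in this comparison. It was 1.379 on the log2 scale without s13 (adjusted p = 0.00737), and 0.67 without s14 (adjusted p = 0.193), which ended the call. The call was also lost without s01 (adjusted p = 0.112) or s03 of WT (0.0669) or without s15 (0.0699). In MBD3KO it was at 684, 302.5 and 214 CPM, with the single high value in s04. MBD2t was at 413, 368 and 361 CPM and overlapped with WT. MBD3dMBD held the lowest values, 188.5, 166 and 234 CPM, all below WT, but the change was not called (log2 fold change -0.99, SE 0.40, adjusted p = 0.654).

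As a share of the summed RPKM of both transporters, Slc2a3 made up 12.2 ± 1.21% in WT and 27.2 ± 0.874% in the libraries labelled MBD2aFL (SD, n = 3). The 3 libraries labelled MBD2aFL were at 27.3, 28.1 and 26.3%, all above the highest value of any other line, 22.1% in MBD2a-GR. The shares lay close together in these libraries although the levels of both genes were lowest in s13. The other lines had mean shares between 9.57% in MBD3dMBD and 16.2% in MBD2t. A two-sided exact permutation test of 3 against 3 libraries reaches p = 0.1 at best, so no test is given for the share.

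Hk1 and Hk2, hexokinases that phosphorylate glucose in the first step of glycolysis, were not called in any comparison. Hk1 (chromosome 10, 61731603 to 61842656), the constitutive form, was between 43.95 and 83.8 CPM in WT, between 48.8 and 72.9 CPM in MBD3KO and between 53.9 and 57.8 CPM in MBD2t. Hk2 (chromosome 6, 82675019 to 82724448), the inducible form, was between 84.4 and 237 CPM in WT and between 135 and 248 CPM in MBD3KO. The ranges of both genes overlapped between these lines, and their mean levels in all 8 lines stayed between 53.5 and 70.4 CPM for Hk1 and between 119 and 174 CPM for Hk2. Of the summed RPKM of both, Hk2 made up 75.05 ± 4.502% in WT and 80.8 ± 2.04% in MBD3KO, and line means ran from 72.3% in MBD3dMBD to 82.1% in MBD2a-GR. An exon of Hk1 shares 157 bases with 2210417K05Rik on the opposite strand.

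Pfkp, the platelet-type phosphofructokinase of the committed step, lies on chromosome 13 at 6579014 to 6648023. It was at 62.2, 46.5 and 46.3 CPM in WT and at 124, 52.5 and 57.0 CPM in MBD3KO. Only s04 lay above the WT range, the other 2 values lay inside it, and the gene was not called (log2 fold change 0.59, SE 0.44, adjusted p = 0.256, and 0.0814 on the log2 scale without s04). In the libraries labelled MBD2aFL its values were 17.7, 70.3 and 84.5 CPM, on both sides of WT. It shares 372 exon bases with Pitrm1 on the opposite strand. Aldoc, the brain form of aldolase on chromosome 11 at 78136470 to 78141283, was the lowest of the 10 genes, between 10.8 and 19.96 CPM in WT, between 11.3 and 14.9 CPM in MBD3KO and between 8.33 and 9.46 CPM in MBD3dMBD. It was called in no comparison.

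Ldha, the lactate dehydrogenase subunit that favours the reduction of pyruvate to lactate, lies on chromosome 7 at 54096845 to 54110997. Its CPM was 1179, 1103 and 1522 in WT and 896, 473 and 524 in MBD3KO. It was 205, 879 and 725 in the libraries labelled MBD2aFL and 480, 450 and 492 in MBD2t. In these 3 lines, every library lay below every WT library. Ldha was called lower 2.01-fold in MBD3KO (log2 fold change -1.01, SE 0.33, adjusted p = 0.0140), 2.10-fold in the libraries labelled MBD2aFL (-1.07, SE 0.33, adjusted p = 0.0107) and 2.67-fold in MBD2t (-1.42, SE 0.34, adjusted p = 0.00135). MBD3a was at 1490, 1195 and 1116 CPM and MBD2aR181C at 1195, 1045 and 1196 CPM, both within or next to the WT range. MBD3dMBD lay between 941 and 1041 CPM and MBD2a-GR between 860 and 1155 CPM, and neither was called. Without s04 the log2 fold change in MBD3KO was -1.35, and without s13 that in MBD2aFL was -0.65 (adjusted p = 0.0191), under the fold threshold, as were those without s03 of WT (-0.92, adjusted p = 0.0406) and with library size alone (-0.93). In a fit of only the 2 lines the adjusted p was 0.120. The call in MBD3KO was lost without s03 of WT (adjusted p = 0.0520), s05 (0.0677) or s06 (0.0571). With other scalings (RLE, library size alone) and with DESeq2 it kept its adjusted p but lay between -0.95 and -0.88 on the log2 scale, under the fold threshold, as it did without the filter (-0.99) and in a fit of only the 2 lines (-0.98).

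Ldhb, the subunit that favours lactate oxidation, lies on chromosome 6 at 142438769 to 142456477. It was at 131, 109 and 159 CPM in WT, at 102, 86.5 and 76.96 CPM in MBD3KO and at 90.6, 88.8 and 83.5 CPM in MBD2t. All values of MBD3KO and MBD2t lay below WT. Its adjusted p passed in both lines but its fold stayed under 2, at 1.503 in MBD3KO (log2 -0.59, SE 0.17, adjusted p = 0.00523) and 1.52 in MBD2t (-0.60, SE 0.17, adjusted p = 0.00440). In the libraries labelled MBD2aFL it was at 113, 145 and 90.8 CPM and overlapped with WT. Of the summed RPKM of Ldha and Ldhb, Ldhb made up 16.6 ± 0.781% in WT, 21.8 ± 4.00% in MBD3KO and 26.0 ± 1.48% in MBD2t. The share was 22.04 ± 1.64% in MBD3dMBD and 21.8 ± 2.85% in MBD2a-GR, much as in MBD3KO. The highest share of all, 51.1%, was that of library s13 of MBD2aFL, against 23.8 and 19.2% in the other 2 libraries of that line.

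**Figure D2:**
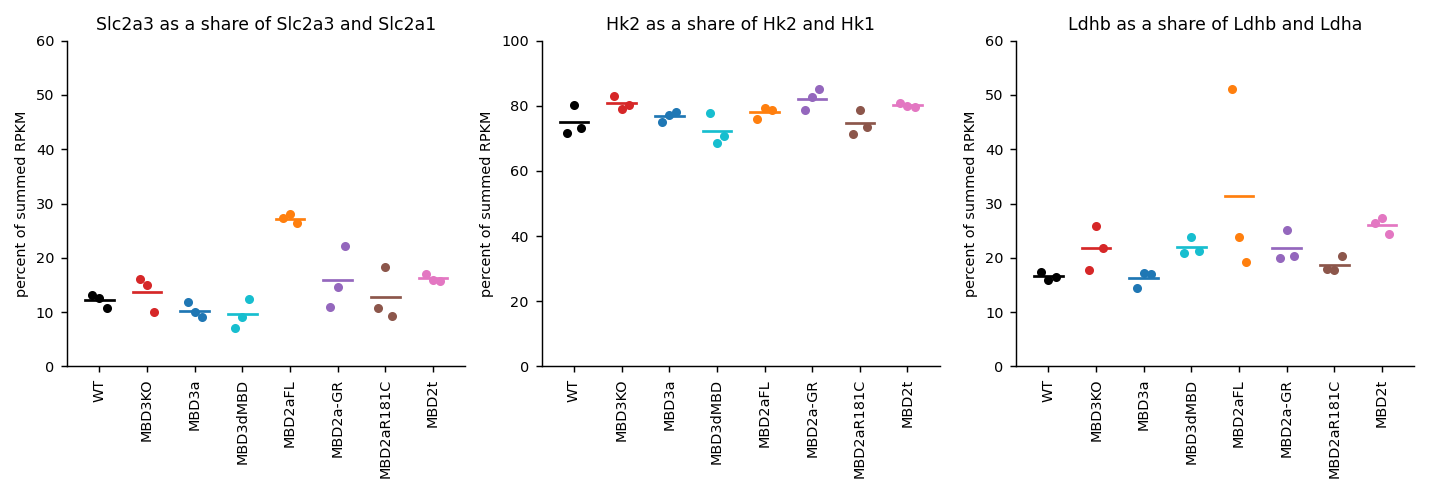
Share of Slc2a3 in the summed RPKM of Slc2a3 and Slc2a1, of Hk2 in that of Hk2 and Hk1, and of Ldhb in that of Ldhb and Ldha (vertical axes, percent) for the 8 lines, with a point for each library and a bar for the mean of 3. The libraries labelled MBD2aFL stand above all others in the transporter share, at 26.3 to 28.1%, and library s13 stands alone in the lactate dehydrogenase share, at 51.1%.

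Pdk1, a kinase that inhibits pyruvate dehydrogenase and so limits pyruvate oxidation in the mitochondrion, lies on chromosome 2 at 71711281 to 71741915. It was at 177, 154 and 142 CPM in WT, at 115, 62.3 and 53.7 CPM in MBD3KO, at 41.9, 108 and 130.5 CPM in the libraries labelled MBD2aFL and at 72.7, 69.8 and 73.6 CPM in MBD2t. All values of these 3 lines lay below WT. It was called lower 2.05-fold in MBD3KO (log2 fold change -1.04, SE 0.36, adjusted p = 0.0192) and 2.19-fold in MBD2t (-1.13, SE 0.36, adjusted p = 0.0118), but not in MBD2aFL (-0.76, SE 0.36, adjusted p = 0.0823). Without s04 the log2 fold change in MBD3KO was -1.44, and the call there was lost without s01 of WT (adjusted p = 0.0611), s05 (0.0811) or s06 (0.0951). With the same other scalings and DESeq2 it lay between -0.98 and -0.91. In MBD2t it was -0.97 with library size alone, which ended the call. In MBD2aFL it was called without s15 (-1.07, adjusted p = 0.0369). The other lines ranged from 63.5 CPM in MBD2a-GR to 196 CPM in MBD3a, and none was called.

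Bnip3, a receptor on the mitochondrial surface that drives mitophagy and a much used HIF target, moved furthest. It lies on chromosome 7 at 146082519 to 146101202. In WT it was at 244, 287.5 and 231 CPM. It was at 131, 50.3 and 56.9 CPM in MBD3KO, at 37.1, 150 and 149 CPM in the libraries labelled MBD2aFL and at 46.4, 44.0 and 47.4 CPM in MBD2t. The highest value of these 3 lines, 150 CPM, was below the lowest WT value, 231 CPM. Bnip3 was called lower 3.20-fold in MBD3KO (log2 fold change -1.68, SE 0.41, adjusted p = 0.0017), 2.27-fold in MBD2aFL (-1.18, SE 0.40, adjusted p = 0.0181) and 5.53-fold in MBD2t (-2.47, SE 0.42, adjusted p = 6.57e-05). The log2 fold change in MBD3KO was -2.25 without s04. In MBD2aFL it was -0.76 without s13 (adjusted p = 0.0693), and the call was also lost without s02 of WT (adjusted p = 0.0529).

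Neural progenitor markers summed to more in every library of MBD3a, MBD3dMBD, MBD2a-GR and MBD2aR181C than in MBD3KO. In MBD2a-GR the sums were 3476, 2455 and 1719 CPM in s16, s17 and s18, against 2711 to 4137 CPM in WT. In MBD2aR181C they lay between 2591 and 4222 CPM. These lines held Bnip3 at intermediate levels or at those of WT. MBD3a was at 315, 166 and 146.5 CPM and MBD2aR181C at 233, 200 and 187 CPM. MBD3dMBD was at 118, 178 and 187 CPM and MBD2a-GR at 187, 166 and 166 CPM. The values of the last 2 lines all lay below WT, yet Bnip3 was not called in MBD3dMBD (log2 fold change -0.66, SE 0.40, adjusted p = 0.770) or in MBD2a-GR (-0.56, SE 0.40, adjusted p = 0.394).

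In the libraries labelled MBD2aFL, 2 of the 10 genes were called lower than in WT and 1 higher, against 13.7% of all tested genes called lower and 30.6% called in either direction. The libraries of 3 genes (Ldha, Pdk1 and Bnip3) lay below WT without overlap, against 28.2% of all tested genes. In these libraries 14 of 15 neural progenitor markers were called lower, 10 of 12 pluripotency markers and 8 of 12 trophoblast markers higher, and 7 of 10 mesenchyme and muscle markers lower. The trophoblast markers summed to between 574 and 2489 CPM. Of 14 markers of primitive and parietal endoderm 8 were called higher, or 2 without s01, 4 without s02 and 5 without s03 of WT, 5 without s13 and 3 without s15. The summed level of the endoderm markers was 3687 CPM in s13, 891 CPM in s14 and 4166 CPM in s15, against 772 to 954 CPM in WT, and no endoderm marker was at 0 in all libraries of a line. The part of these cell types in the result was not tested.

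In MBD2t, 3 of the 10 genes were called lower and none higher, against 15.1% of all tested genes called lower and 33.4% called in either direction. By the adjusted p alone 4 were lower, against 31.1% of all tested genes. The libraries of 6 genes (Slc2a1, Pfkp, Ldha, Ldhb, Pdk1 and Bnip3) lay below WT without overlap, against 34.6% of all tested genes. In MBD2t 14 of 15 neural progenitor markers were called lower, 11 of 12 pluripotency markers higher and 11 of 12 trophoblast markers higher, the last with a sum between 1656 and 1872 CPM. Their part in the result was not tested. MBD3KO, MBD2aFL and MBD2t were all compared with the same 3 WT libraries, so the comparisons are not independent of each other.

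None of the 10 genes was called in the 4 lines in which fewer genes changed. By the edgeR quasi-likelihood test, 0 of 10 were called in MBD3a, against 0% of all tested genes. An unadjusted p under 0.05 was reached there by 0 of 10, against 1.77% of all tested genes. In MBD3dMBD 0 of 10 were called, against 0.0181% of all tested genes. There 2 (Aldoc and Slc2a3) had an unadjusted p under 0.05, against 7.16% of all tested genes. The libraries of 5 of the 10 genes (Slc2a3, Aldoc, Ldha, Pdk1 and Bnip3) lay below all WT libraries in MBD3dMBD, against 6.16% of all tested genes. Neural progenitor markers of this line summed to between 3816 and 4489 CPM, and its pluripotency markers to between 41.2 and 60.5 CPM. The part of these cell types and of the Mbd3 level in the values of MBD3dMBD was not tested. In MBD2a-GR 0 of 10 were called, against 5.16%, and in MBD2aR181C 0 of 10, against 0.0181%. In each, 0 of 10 had an unadjusted p under 0.05, against 26.6% and 3.95% of all tested genes. DESeq2 also called 0 of 10 in all 4 lines.

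**Figure D3:**
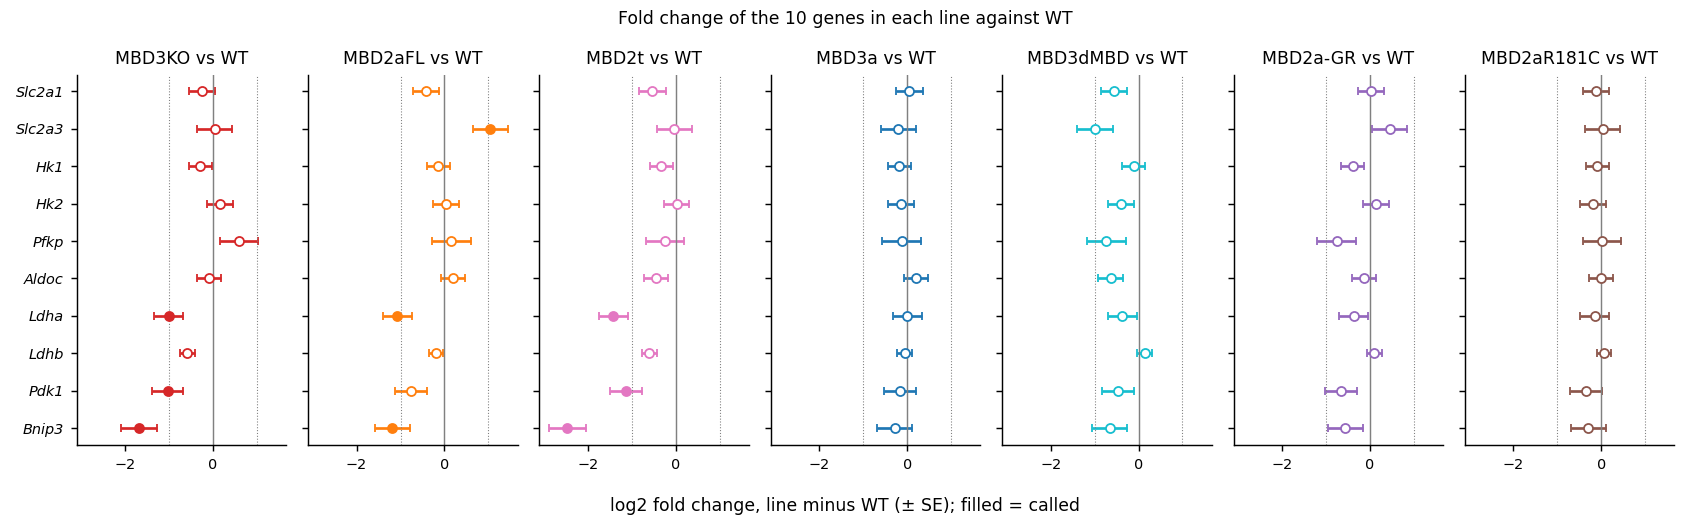
Log2 fold change of each of the 10 genes against WT (horizontal axis, line minus WT, with bars of 1 SE) in the 7 other lines, with filled points for called genes and dotted lines at a fold of 2. Filled points lie at -2.47 to -1.01 for Bnip3, Ldha and Pdk1 and at 1.04 for Slc2a3, and all lie in MBD3KO, MBD2aFL or MBD2t.

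When the 8 lines were ordered by the mean CPM of a gene, most neighbours differed by less than the larger of their SDs. The exceptions were MBD2aR181C over MBD3dMBD and MBD2a-GR over MBD3KO for Ldha, MBD2aR181C over MBD2a-GR for Bnip3, MBD2aFL over MBD3KO for Ldhb, MBD3a over MBD3dMBD for Slc2a3, and MBD2a-GR over MBD2t and MBD2t over MBD3dMBD for Aldoc. For Slc2a1, Hk1, Hk2, Pfkp and Pdk1 no neighbours differed by more.

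The lines with the knockout were compared with each other in 4 comparisons. By the edgeR quasi-likelihood test none of the 10 genes was called between the libraries labelled MBD2aFL and MBD3KO, against 5.25% of all tested genes. An unadjusted p under 0.05 was reached by 2 (Ldhb and Slc2a3), against 22.6% of all tested genes. Slc2a3 differed there by 1.01 on the log2 scale (SE 0.40, adjusted p = 0.135), and by 1.64 without s04 (adjusted p = 0.0164). None was called between MBD2t and MBD3KO, against 0.0241% of all tested genes, with 0 of 10 at an unadjusted p under 0.05, against 3.44%. None was called between the libraries labelled MBD2aFL and MBD2a-GR, against 18.6%, with Ldha alone (1 of 10) at an unadjusted p under 0.05, against 44.9%. Without s13 Pfkp was called there (1.35, adjusted p = 0.0120), and without s14 Ldha (-1.04, adjusted p = 0.0351). DESeq2 also called none in these 3 comparisons. By their labels, the constructs of MBD2aFL and MBD2aR181C differ by the point mutation. Their libraries also differed in Mbd2, at 67.0 to 87.2 CPM and at 252.9 to 325.5 CPM. Between the libraries of these 2 lines 1 gene was called, against 27.3% of all tested genes. This was Slc2a3, higher in MBD2aFL 2.01-fold (log2 1.01, SE 0.40, adjusted p = 0.0433), where the libraries overlapped, since MBD2aR181C was at 280, 646 and 271 CPM. The call was lost without s14 (0.66, adjusted p = 0.210), s15 (adjusted p = 0.0896), s19 (0.152) or s21 (0.168). By the adjusted p alone 2 passed, against 50.9%, with Ldha lower by 0.93 on the log2 scale (SE 0.33, adjusted p = 0.0268), and Ldha was called without s14 (-1.27) or s15 (-1.08).

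The other enzymes of glycolysis were taken as a list of 18 genes, of which 17 were tested. In MBD3KO 4 of them were called lower and 2 higher, against 14.2% and 19.6% of all tested genes, and by the adjusted p alone 11 of 17 were lower, against 30.8%. Their median log2 fold change was -0.65, against -0.03 over all tested genes. Gpi1 (glucose-6-phosphate isomerase) fell from 924 ± 105 to 446 ± 101 CPM, Tpi1 (triosephosphate isomerase) from 667 ± 27.9 to 286.5 ± 58.6 CPM and Pgk1 (phosphoglycerate kinase, which yields ATP) from 1043 ± 197 to 500 ± 195 CPM (SD, n = 3). Their log2 fold changes were -1.05 (SE 0.23, adjusted p = 7.65e-04), -1.22 (SE 0.25, adjusted p = 3.755e-04) and -1.06 (SE 0.27, adjusted p = 0.00243). Hk3, a hexokinase typical of blood cells, fell from between 10.5 and 45.5 CPM to between 0.143 and 0.502 CPM. The 10 markers of blood and endothelium summed to between 50.5 and 67.4 CPM in WT and to between 113 and 208 CPM in MBD3KO. Of these 10, only Ptprc, a defining marker of blood cells, was at 0 in all WT libraries. Which cells the Hk3 reads came from was not tested. Pgam2 and Ldhc, the muscle and testis forms of phosphoglycerate mutase and lactate dehydrogenase, rose, but from 0.194 and 0.0839 CPM to only 1.82 and 0.819 CPM. On the RPKM scale, the abundant forms lay lower in MBD3KO along the chain, with Gapdh at 1002 ± 114 in WT and 682 ± 121 in MBD3KO, Eno1 at 187 ± 13.2 and 107 ± 24.3, and Pkm (pyruvate kinase) at 1113 ± 41.1 and 618 ± 161, each with an adjusted p under the threshold and a fold under 2. Aldoa (aldolase) was at 418 ± 53.9 and 331 ± 132 RPKM and did not pass (adjusted p = 0.363). Without s04, 6 enzymes were called lower and 11 were lower by the adjusted p, and with scaling by library size alone 2 and 10. Gpi1, Tpi1 and Hk3 share between 34 and 741 exon bases with a gene on the opposite strand.

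**Figure D4:**
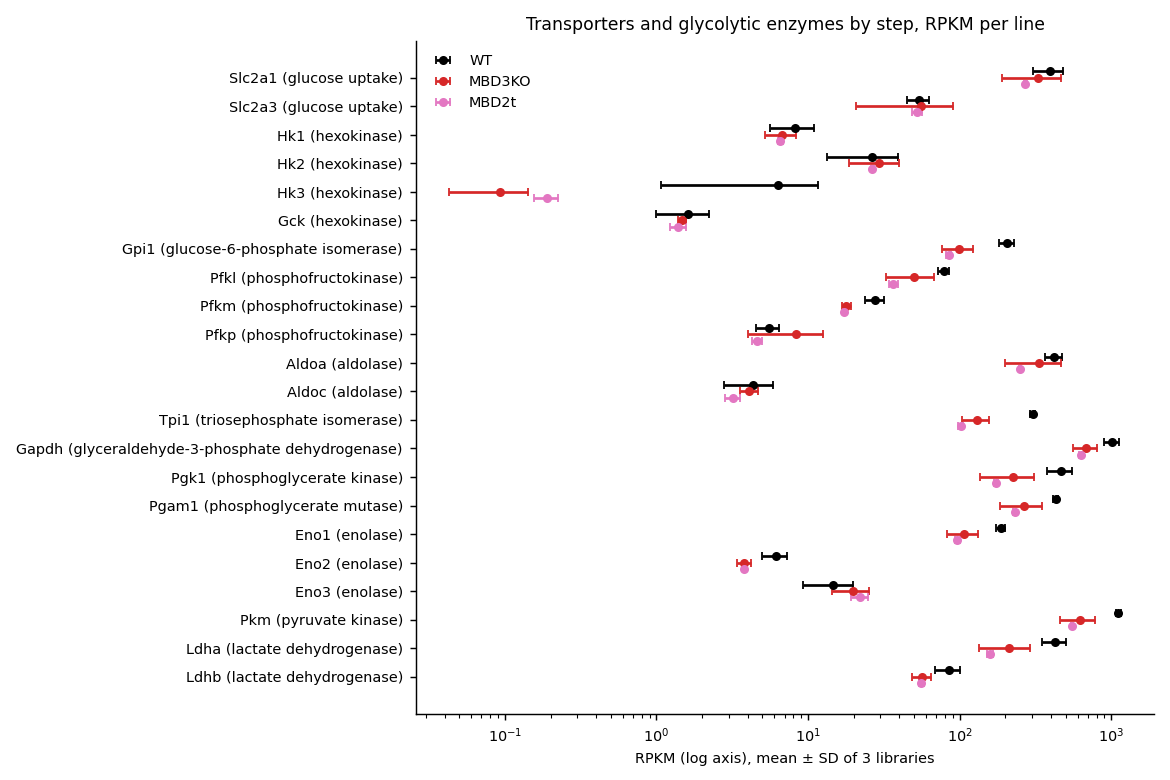
RPKM (horizontal axis, log scale) of transporters and of glycolytic enzymes with at least 1 RPKM in WT, ordered by step, with the mean and SD of 3 libraries for WT, MBD3KO and MBD2t. From Tpi1 down to Ldhb, all points of MBD3KO and MBD2t except those of Eno3 lie below those of WT, while Slc2a3 and Hk2 lie together in the 3 lines.

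In MBD2t 6 of 17 enzymes were called lower and 3 higher, against 15.1% and 18.2% of all tested genes, and 12 of 17 were lower by the adjusted p alone, against 31.1%. Tpi1 fell by 1.57 on the log2 scale and Pgk1 by 1.42. In the libraries labelled MBD2aFL 3 of 17 were called higher and 2 lower, against 16.9% and 13.7% of all tested genes. The lower ones were Tpi1 (-1.17, SE 0.25, adjusted p = 6.89e-04) and Hk3 (-4.23, SE 0.71, adjusted p = 7.88e-05), and the median was -0.33. Without s13 4 were called higher and 1 lower and the median was -0.13. None of the 17 was called in MBD3a, MBD3dMBD, MBD2a-GR or MBD2aR181C, and the median of the list was -0.06, -0.42, -0.12 and -0.13 in these lines. By edgeR, 0, 2, 1 and 0 of the 17 had an unadjusted p under 0.05 there, and DESeq2 called none. The shares of all tested genes at an unadjusted p under 0.05 were 1.77%, 7.16%, 26.6% and 3.95%.

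Among the regulators of flux, 3 of 10 were called lower in MBD3KO and none higher, against 14.2% and 19.6% of all tested genes, and by the adjusted p alone 2 were higher. The genes called lower were Ppp1r3c, which directs glycogen synthesis (log2 fold change -2.92), Mycn, the MYC family factor of neural progenitors (-1.94), and Pfkfb3, which makes the activator of phosphofructokinase (-1.66). Mycn was between 139 and 153.5 CPM in WT and between 37.8 and 39.5 CPM in MBD3KO, and between 33.4 and 36.7 CPM in MBD2t. Among 11 other transporters of glucose and lactate, 3 were called higher and 1 lower, against the same shares. Slc16a1 (MCT1, which carries lactate) rose from 85.5 ± 22.3 to 214.5 ± 27.4 CPM, Slc2a5 and Slc2a9 rose from 0.520 and 0.148 to 2.35 and 0.467 CPM, and Slc2a10 fell from 3.47 to 1.02 CPM. Among 14 genes of gluconeogenesis and glycogen, 4 were called higher and 1 lower, against 19.6% and 14.2% of all tested genes. Fbp1, Fbp2 and Pygl rose (log2 fold changes 2.02, 3.06 and 1.78) and Gbe1, the glycogen branching enzyme, fell (-1.30). Fbp1 and Fbp2, which reverse the phosphofructokinase step, were at no more than 2.23 CPM in all libraries of WT and MBD3KO.

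Of 13 genes of pyruvate dehydrogenase and of pyruvate entry into the mitochondrion, 1 was called higher and 2 lower in MBD3KO. These shares are under or near the 19.6% and 14.2% of all tested genes. Pdk4, another pyruvate dehydrogenase kinase, went the opposite way to Pdk1 and rose from 0.903 ± 0.0855 to 4.18 ± 0.604 CPM. The phosphatases Pdp1 and Pdp2, which relieve the inhibition, fell by 1.70 and 1.33 on the log2 scale, Pdp2 from 37.5 ± 4.77 to 14.9 ± 0.761 CPM. Downstream, 0 of 16 genes of the TCA cycle were called by edgeR, against 33.8% of all tested genes in either direction. An unadjusted p under 0.05 was reached by 8 of 16, against 64.1% of all tested genes. By the adjusted p alone 2 were higher and 6 lower, against 30.8% of all tested genes lower. DESeq2 called 1 higher. Of 55 nuclear genes for subunits of the respiratory chain, 2 were called higher and none lower, against 19.6% and 14.2% of all tested genes. The higher ones were Cox7a1 at 5.61 ± 1.84 and Cox4i2 at 2.29 ± 0.288 CPM in MBD3KO. By the adjusted p alone 3 of the 55 were higher and 11 lower, against 30.8% of all tested genes lower. An unadjusted p under 0.05 was reached by 14, against 64.1%, and DESeq2 called 2. The median log2 fold changes of the TCA list (-0.08) and of the respiratory chain list (-0.16) moved with the scaling, to 0.06 and -0.02 with library size alone. Among 9 genes of the pentose phosphate pathway, 2 (Tktl1 and H6pd) were called higher, near the 19.6% of all tested genes (log2 fold changes 2.31 and 1.28). None was called lower. By the adjusted p alone 3 of the 9 were higher and 4 lower, against 30.8% of all tested genes lower. By edgeR an unadjusted p under 0.05 was reached by 9 of 9, against 64.1%.

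Of 11 regulators of the HIF pathway tested in MBD3KO, 2 were called higher and 3 lower, against 19.6% and 14.2% of all tested genes. The oxygen sensors Egln1 and Egln3, prolyl hydroxylases that mark HIF for destruction and are HIF targets too, fell from 279 ± 76.1 to 131 ± 32.5 CPM and from 37.9 ± 13.9 to 14.2 ± 5.51 CPM. Arnt2, a neural partner of HIF, fell from 156 ± 41.1 to 50.0 ± 24.9 CPM. Epas1 (HIF2A) rose from 4.72 ± 1.83 to 26.9 ± 8.05 CPM (log2 fold change 2.51, SE 0.99, adjusted p = 0.0353), and Hif3a rose from 8.94 ± 3.83 to 22.03 ± 4.21 CPM. In MBD2a-GR, Epas1 ranged from 5.78 to 244 CPM and the summed endoderm markers from 1176 to 19670 CPM. In that line 12 of 14 endoderm markers were called higher, but 0 without s18, 0 without s01, 1 without s02 and 7 without s03 of WT, and 0 in a fit of only the 2 lines.

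Of 47 other genes known to respond to hypoxia, 17 were called lower and 10 higher in MBD3KO, against 14.2% and 19.6% of all tested genes. By the adjusted p alone 23 were lower, against 30.8% of all tested genes, and 11 were higher. The median log2 fold change of the list was -0.57. It was -0.70 without s04 and -0.42 with scaling by library size alone. Ankrd37 fell from 19.1 ± 6.13 to 3.34 ± 1.39 CPM and Vldlr, a lipoprotein receptor, from 68.5 ± 32.2 to 14.1 ± 4.07 CPM. Hmox1, a heme oxygenase, rose from 45.1 ± 12.1 to 318 ± 63.0 CPM. In MBD2t 20 were called lower and 10 higher, against 15.1% and 18.2% of all tested genes, with a median of -0.81. For the libraries labelled MBD2aFL the counts were 14 lower and 7 higher, against 13.7% and 16.9%, with a median of -0.59. By edgeR and by DESeq2 no gene of this list was called in MBD3a, MBD3dMBD or MBD2aR181C. By edgeR 0, 9 and 1 of 47 had an unadjusted p under 0.05 there, against 1.77%, 7.16% and 3.95% of all. In MBD2a-GR 2 were called higher and 1 lower, against 5.16% of all tested genes called in either direction. Pgk1, Eno1, Gbe1, Pfkfb3, Egln1 and Egln3 stand in this list and in another of the lists above, and Ankrd37 shares exon bases with Ufsp2 and Lrp2bp. Of 12 mitophagy receptors and relatives of BNIP3, none was called by edgeR in MBD3KO, against 33.8% of all tested genes, and DESeq2 called none. An unadjusted p under 0.05 was reached by 7 of 12, against 64.1% of all tested genes. By the adjusted p alone 1 was higher and 5 lower, against 30.8% of all tested genes lower.

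**Figure D5:**
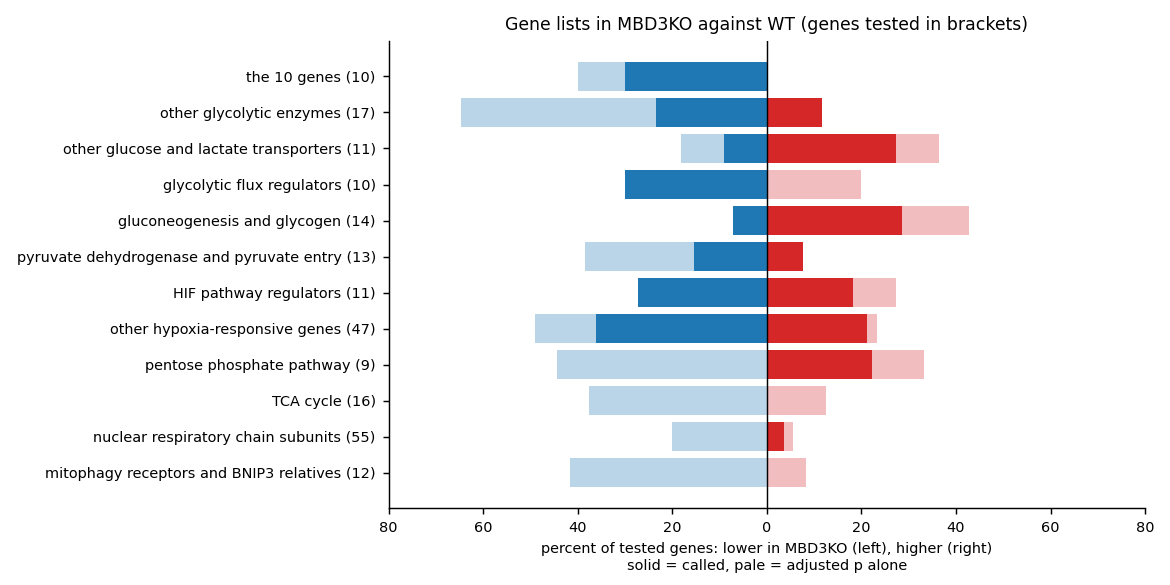
Percent of the tested genes of each list that were lower (left) or higher (right) in MBD3KO than in WT, with solid bars for called genes and pale bars for the adjusted p alone (number tested in brackets). The other glycolytic enzymes and the other hypoxia-responsive genes have the longest bars on the left, with 11 of 17 and 23 of 47 genes lower by the adjusted p.

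Across the 24 libraries, the highest correlations among the 10 genes were those between Bnip3, Ldha and Pdk1. The Pearson correlation of log2 CPM was 0.925 for Bnip3 and Ldha, 0.869 for Bnip3 and Pdk1 and 0.845 for Pdk1 and Ldha. Next came Ldha and Slc2a1 at 0.739, Bnip3 and Ldhb at 0.704, Ldhb and Ldha at 0.659 and Bnip3 and Slc2a1 at 0.634. For Slc2a3 and Ldha it was -0.03. These are descriptions over 24 libraries that share lines and a WT control. Among the 12814 genes whose log2 CPM averaged 1 or more, the 3 genes most like each of the 10 were named. For Bnip3 these were Ankrd37 (r = 0.974), Pgk1 (0.966) and Pfkl (0.956), and for Ldha they were Tpi1 (0.965), Pgam1 (0.956) and Pgk1 (0.955). For Pdk1 they were Bnip3l (0.9498), its pseudogene Bnip3l-ps (0.930), whose reads may come in part from Bnip3l, and Pfkfb3 (0.900). All genes named for Bnip3 and Ldha encode glycolytic enzymes, apart from Ankrd37, and Bnip3l is a mitophagy receptor related to Bnip3.

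The other 7 genes had weaker or more scattered partners. Slc2a1 was most like Shmt2 (r = 0.849), Aldoa (0.808) and Gm4609 (0.799), and Aldoc was most like Ndufa4l2 (0.729), Aldoa (0.728) and Mrpl38 (0.702). Slc2a3 was most like Acp6 (0.879), Cfap20dc (0.858) and Map2k1 (0.846), and Pfkp was most like Vwa1 (0.790), Ak4 (0.777) and Fhad1 (0.774). Hk1 was most like Cxxc5 (0.870), Chd9 (0.867) and Smap2 (0.865), and Hk2 was most like Atg2b (0.830), Dlc1 (0.801) and Atxn2l (0.795). Ldhb, despite its place beside Ldha in the pathway, was most like Ppp5c (0.926), Adprm (0.910) and Wdr73 (0.901), none of which is a glycolytic enzyme, and its correlation with Ldha was 0.659.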

How the data were processed

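Only the poly(A) RNA-seq of NPCs in 8 lines was used. Libraries from ChIP were not analysed here. The authors trimmed reads with Trim Galore 0.6.6, aligned them with STAR to NCBIM37 (mm9) and used QuasR to count reads on genes of GENCODE. The deposited values are these whole-number counts, not normalized, for 25400 genes, in 24 columns that name the line and a library number but no replicate number. The strand setting of the counting is not given in the sources used here. The point mutant is R181C in the labels, R191C in the text of the paper and R64C in the deposited columns, and these were taken as the same line because it is the only such mutant.

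Low counts were removed by filterByExpr with the line as group, TMM factors set the scale, and the test was the quasi-likelihood test of edgeR 4.0.16 (R 4.3.3), with all libraries in 1 fit and the line as the factor, and Benjamini-Hochberg adjustment over 16582 genes. RPKM used the union of a gene's exons in the annotation, in which all 25400 identifiers were found, and log2 CPM used a prior count of 1. The fit was tested on simulated data for MBD3KO against WT. It called 1 of 50 genes changed 1.5-fold, 15 of 49 changed 2-fold, 39 of 50 changed 4-fold and 46 of 50 changed 8-fold. A gene that was not called can thus have changed by a fold of 2 or less. In 11 comparisons the alternatives were RLE or library size scaling, no filter, a fit of only the 2 lines compared, the adjusted p alone, DESeq2 1.42.0, leaving out each library, and, added after the data had been seen, the legacy quasi-likelihood fit. A level of 3 counts corresponds to 0.107 CPM at the lowest library total and to 0.0607 CPM at the highest, and floors cover counting error only.

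The 10 genes and the lists were chosen with earlier results of these data known. Genes named from the 11 lists that hold no cell type markers are those called in MBD3KO with the largest absolute log2 fold change, up to 4 a list and up to 8 for other glycolytic enzymes and HIF regulators. A gene that this rule names is not reported here. The 3 tested genes with the highest Pearson correlation of log2 CPM were named for each of the 10. Gapdh, Eno1, Pkm and Aldoa were named after their values were seen. The motif search used the 250 upstream bases of each window of the RefSeq promoter table.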

Additional observations from a re-analysis of the deposited data

How the results depend on the processing

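Of 53 values of the 10 genes that passed by the adjusted p or exceeded their SE, 596 recomputed values kept direction and side of the threshold, 32 kept only the direction, 6 newly passed and 2 changed sign, and all 32 lost calls belong to the 10 called values. The number of the 10 genes called in MBD3KO against WT was 3. It was 1 with RLE scaling, with library size alone and with DESeq2, and 1 to 3 when a library was left out. In MBD2aFL against WT it was 3, with 0 in a fit of only the 2 lines, and 1 to 3 when a library was left out. In MBD2aFL against MBD3KO and against MBD2a-GR it was 0, and 0 to 1 when a library was left out. In MBD2aFL against MBD2aR181C it was 1, with 2 by the adjusted p alone, 0 in a fit of only the 2 lines, and 0 to 1 when a library was left out. In MBD2t against WT it was 3, with 2 by library size alone. The log2 fold change of Hk2 in MBD3dMBD against WT, -0.39, ran from -0.69 to 0.0139 (without s02 of WT), and that of Aldoc in MBD2aFL against MBD3KO, 0.29, ran from -0.0508 (without s14) to 0.52. The cause was not tested.

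Over all genes, 5609 were called in MBD3KO against WT, 5077 in MBD2aFL and 5531 in MBD2t, and by the adjusted p alone 9990, 9197 and 9911. In MBD2a-GR against WT 856 were called, with 13 in a fit of only the 2 lines, 1417 by the adjusted p alone and 121 to 1914 when a library was left out. In the same order, MBD2aFL against MBD3KO gave 871, 241, 1454 and 526 to 1288, and MBD2aFL against MBD2a-GR 3080, 1699 and 5755. MBD2aFL against MBD2aR181C gave 4525, and 8434 by the adjusted p alone. MBD3dMBD gave 3, with 23 by DESeq2, 0 by the legacy fit and 0 to 8 when a library was left out, and MBD2aR181C gave 3, with 15, 1 and 1 to 10. MBD2t against MBD3KO gave 4, with 2 by library size or without the filter, 1 by the legacy fit or only the 2 lines, and 1 to 39 when a library was left out (39 without s04), and the share of higher calls there was 25.0%, or 50.0% with library size alone. Scaling by library size alone raised the median log2 fold change of all genes by 0.14 in MBD3KO, 0.15 in MBD2aFL and 0.16 in MBD2t against WT, and by 0.14 in MBD2aFL against MBD2a-GR and 0.15 against MBD2aR181C. Of the 30 genes most like the 10, 15 were found by Spearman's and 5 by line means. No paired analysis was possible because the deposited columns carry no replicate numbers.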
